A study of Mus musculus with 8 samples.

Results

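The tumour necrosis factor (TNF) family of naive CD4 T cells was examined as 35 protein-coding genes, 11 ligands, 17 receptors and the 7 TNF receptor-associated factors Traf1 to Traf7. Genes were taken by name from the deposited normalized table: symbols beginning with Tnfsf or Tnfrsf and a number, Traf1 to Traf7, and Fas, Cd27, Cd40lg, Lta, Ltb, Tnf and Ltbr, with Tnfrsf18 left out. They are 35 of the 16418 genes in that table, which lists genes with at least 10 reads over all libraries. Poly(A) RNA was sequenced from naive T cells of mouse spleen and lymph node, with gates that included CD3, CD4 and the lack of CD25 and of high CD44. All 8 libraries came from Satb1fl/fl x CD4-CreERT2wt/+ mice, in which Cre recombinase, made active by tamoxifen and driven by CD4 sequences, can remove the floxed part of Satb1. The 4 libraries labelled KO (Sample_2907_KO, Sample_2908_KO, Sample_2909_KO, Sample_2910_KO) came from tamoxifen-treated mice, and the 4 labelled WT (Sample_2911_WT, Sample_2913_WT, Sample_2914_WT, Sample_2915_WT) from untreated mice that carry the same alleles. No cells without the floxed alleles and no WT cells given tamoxifen were analysed here, so the drug and the intended deletion cannot be told apart. The labels give neither the age of the mice nor whether each library is a separate animal, so p-values measure the spread between libraries, which may be technical.

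TNF family ligands are trimeric proteins, mostly held on the cell surface, that cluster their receptors on a neighbouring cell or on the same cell. Receptors with a death domain, such as Fas and TNF receptor 1, can start apoptosis, whereas receptors without one, such as CD27, OX40 and 4-1BB, recruit TRAF adaptors. TRAFs pass the signal to the IkB kinase complex and to NF-kB, and in T cells this signalling serves costimulation, survival and help to B cells.

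KO libraries held 7544075 to 9253620 counted reads and WT libraries 5227758 to 21998174. Satb1 itself ranged from 839.6 to 1032 CPM (read counts scaled to a common library size with TMM factors) in KO and from 987.2 to 1083 in WT, with a log2 fold change of -0.18 (SE 0.059, edgeR quasi-likelihood test, adjusted p = 0.0582). These reads were counted over the whole gene, of which only the floxed part can be removed, so they do not measure the deletion. KO and WT are therefore used as the names of the groups. All 10 naive CD4 T cell markers examined had reads in every group, summing to 8030 to 8709 CPM in KO and 8035 to 8465 CPM in WT. B cell markers were low throughout, at 6.05 to 9.24 CPM over 10 genes in KO and 6.46 to 9.52 CPM in WT. The sum of 10 myeloid and dendritic cell markers lay between 41.7 and 52.4 CPM in KO and between 34.9 and 63.7 CPM in WT. For 10 CD8 T and NK cell markers it was 70.8 to 78.1 CPM in KO and 83.7 to 91.0 CPM in WT, and for 5 markers of gamma delta and innate-like T cells 13.3 to 21.4 and 10.6 to 13.7 CPM. Among naive CD4 markers, Il7r rose and Tcf7, Cd4 and Ccr7 fell (edgeR adjusted p = 0.0245, 0.000291, 0.0242 and 0.0221), and none of the 3 B cell and 4 myeloid genes tested passed. Of the 4 CD8 T and NK cell genes tested, Klrd1 fell without overlap between the groups (log2 fold change -0.51, SE 0.12, edgeR adjusted p = 0.00837). Of the 2 gamma delta and innate-like genes tested, Trdc rose, with overlapping groups (0.60, SE 0.18, edgeR adjusted p = 0.0426). The 10 regulatory T cell markers summed to 118.8 to 189.9 CPM in KO and 63.7 to 81.4 CPM in WT. Foxp3 is the gene of their lineage transcription factor. With Foxp3 left out, the other 9 summed to 63.8 to 77.2 CPM in KO and 55.6 to 71.6 CPM in WT. None of the 7 tested passed the threshold, and 2 had an unadjusted p under 0.05. Their log2 fold changes had opposite signs: Ikzf2 0.36 (SE 0.16, edgeR adjusted p = 0.194) and Nrp1 -0.87 (SE 0.31, edgeR adjusted p = 0.0952). Lrrc32, too low to be tested, had 0 reads in KO and 41 in WT, at most 1.21 CPM in a library. Foxp3 was at 55.1, 93.2, 113 and 113 CPM in KO and 8.11, 8.83, 9.76 and 6.92 CPM in WT. The part of these marker differences in the values below was not tested.

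Of the 35 genes, 30 had enough reads to be tested and 4 passed an edgeR adjusted p under 0.05. Tnfsf14, Traf1 and Tnfrsf22 rose in KO, and Traf5 fell. The share called, 13.3%, stands beside 6.39% of all 11772 tested genes (3.98% higher and 2.41% lower in KO). The other 26 tested members had log2 fold changes between -0.39 and 0.43. The median over the 30 was 0.01, against 0.00 over all tested genes, with 16 above 0 and 14 below. In 9 of the 30 (30.0%) the ranges of the groups were separate, beside 11.1% of all tested genes. In 4 of these 9 the KO libraries were the higher (Tnfsf14, Traf1, Tnfrsf22 and Traf2), and in 5 the lower (Traf5, Tnfrsf1a, Tnfrsf14, Tnfrsf13b and Cd27).

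**Figure D1:**
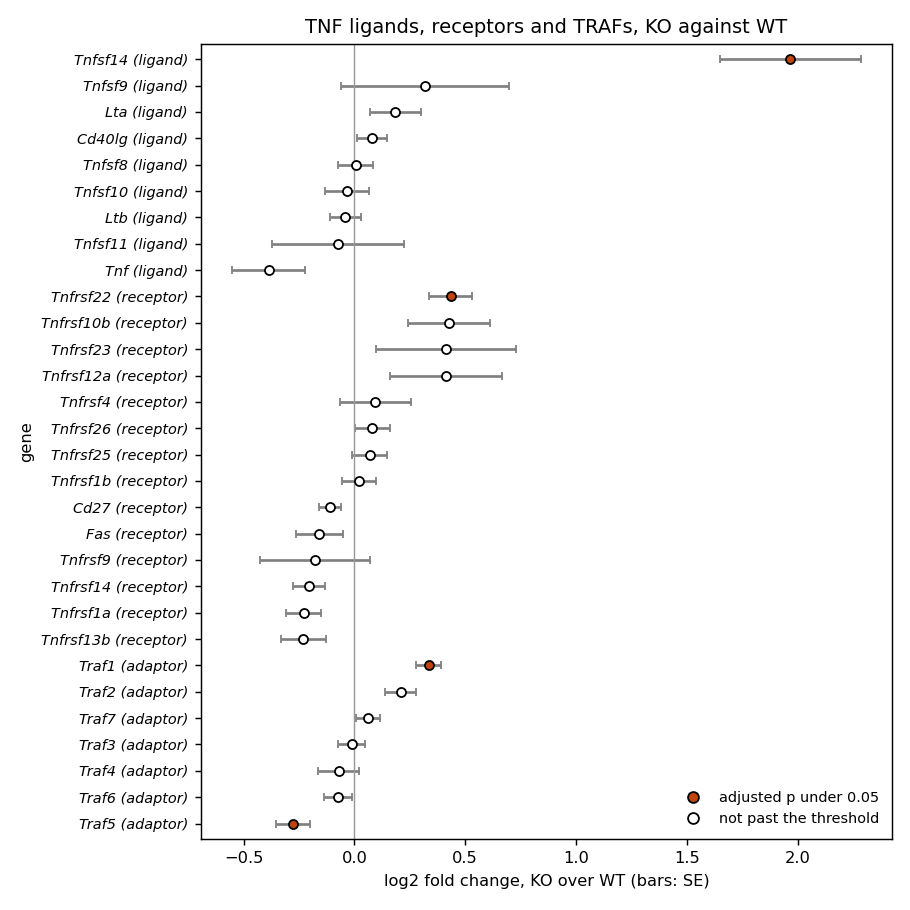
Log2 fold change of KO over WT (x axis; bars are SE, 4 libraries each) for the 30 tested TNF ligands, receptors and TRAFs (y axis), with filled points for an edgeR adjusted p under 0.05. Tnfsf14 lies at 1.97, far to the right of all others, and the 26 open points lie between -0.39 and 0.43.

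The 250 bases before the RefSeq start (GRCm38.p6) are printed for the called genes that have an entry, Tnfsf14, Traf1 and Traf5, because these are the promoters of the genes that changed, and for Traf3, which did not change and holds a match. Sequences run 5′ to 3′ on the gene's strand and are credited to RefSeq. Capitals mark a match to the kappa B consensus bound by NF-kB.
Tnfsf14 (chr17:57194182-57194431, minus strand): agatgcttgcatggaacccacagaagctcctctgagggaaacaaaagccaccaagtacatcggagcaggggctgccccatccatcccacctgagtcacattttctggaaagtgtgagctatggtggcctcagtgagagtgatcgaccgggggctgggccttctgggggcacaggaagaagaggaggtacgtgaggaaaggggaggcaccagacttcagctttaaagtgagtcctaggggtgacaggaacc
Traf1 (chr2:34961773-34962022, minus strand): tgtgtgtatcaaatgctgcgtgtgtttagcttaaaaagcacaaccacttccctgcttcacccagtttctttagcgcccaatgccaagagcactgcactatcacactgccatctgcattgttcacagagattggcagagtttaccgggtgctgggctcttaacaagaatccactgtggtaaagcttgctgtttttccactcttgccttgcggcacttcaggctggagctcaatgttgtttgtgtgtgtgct
Traf5 (chr1:192092600-192092849, minus strand): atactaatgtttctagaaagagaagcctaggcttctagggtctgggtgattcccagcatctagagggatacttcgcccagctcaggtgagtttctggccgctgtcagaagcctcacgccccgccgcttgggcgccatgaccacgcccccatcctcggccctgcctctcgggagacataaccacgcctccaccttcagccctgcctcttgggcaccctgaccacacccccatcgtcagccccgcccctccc
Traf3 (chr12:111166120-111166369, plus strand): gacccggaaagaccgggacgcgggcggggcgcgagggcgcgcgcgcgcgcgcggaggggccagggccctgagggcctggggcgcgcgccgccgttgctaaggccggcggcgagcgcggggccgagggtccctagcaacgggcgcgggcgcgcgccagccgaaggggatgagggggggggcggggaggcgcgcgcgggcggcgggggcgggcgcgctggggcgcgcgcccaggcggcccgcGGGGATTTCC
The Traf3 match is the last 10 bases before the start. This consensus, the ISRE core (the element bound by interferon regulatory factors) and the STAT-type palindrome TTCNNNGAA were searched on both strands in such windows of 29 of the 35 members (33 windows, since some genes have several). The kappa B consensus was found in 4 of the 33 windows (12.1%), of Ltb, Tnfrsf9, Tnfrsf25 and Traf3. It was found in 7.25% of all 32841 windows of the table and in 8.63% of the windows of tested genes. TTCNNNGAA was found in 7 (21.2%), of Fas, Lta, Ltb, Tnfrsf1a, Tnfrsf1b, Tnfrsf9 and Tnfrsf25, beside 7.02% of all windows and 6.01% of those of tested genes. The ISRE core was found in 3 (9.09%), of Tnfrsf1b, Tnfrsf14 and Tnfsf13b, beside 2.98% of all windows and 2.68% of those of tested genes. In Ltb, Tnfrsf9 and Tnfrsf25 the same window held both the kappa B consensus and TTCNNNGAA. The matches of different motifs did not overlap, and those of Tnfrsf9 to the kappa B consensus overlapped each other. The windows of Tnfsf14, Traf1 and Traf5 held no match. A match is a run of letters, not a measured binding.

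Among the ligands, 1 of the 9 tested rose and none fell (2 had an unadjusted p under 0.05). Tnfsf14 encodes LIGHT, a ligand of activated T cells that binds HVEM (the product of Tnfrsf14) and the lymphotoxin beta receptor (Ltbr). It lies on chromosome 17 at 57189492 to 57194177, minus strand (mm10), next to the promoter window printed above. Its level was 4.64, 4.39, 4.11 and 6.03 CPM in the KO libraries, in the order given above, and 1.35, 0.721, 1.56 and 0.952 CPM in the WT libraries. These rest on 38, 40, 38 and 45 reads in KO and 7, 4, 35 and 11 reads in WT. Every KO library was higher than every WT library, and the lowest KO value exceeded the highest WT value by more than the whole WT range. Tnfsf14 rose 3.91-fold (log2 fold change 1.97, SE 0.32, edgeR adjusted p = 7.93e-05; 4.79 ± 0.853 against 1.15 ± 0.379 CPM, SD, n = 4 each).

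Of the genes for the LIGHT receptors, none passed the test. Tnfrsf14 was at 70.3, 68.8, 64.3 and 60.7 CPM in KO and at 77.6, 79.3, 70.6 and 78.2 CPM in WT. All KO libraries were below all WT libraries, but the log2 fold change of -0.20 (SE 0.072) missed the threshold (edgeR adjusted p = 0.0966). It passed when every library was thinned to the smallest one (-0.25, edgeR adjusted p = 0.0443). Ltbr had 8 reads over the 8 libraries and is not in the normalized table.

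**Figure D2:**
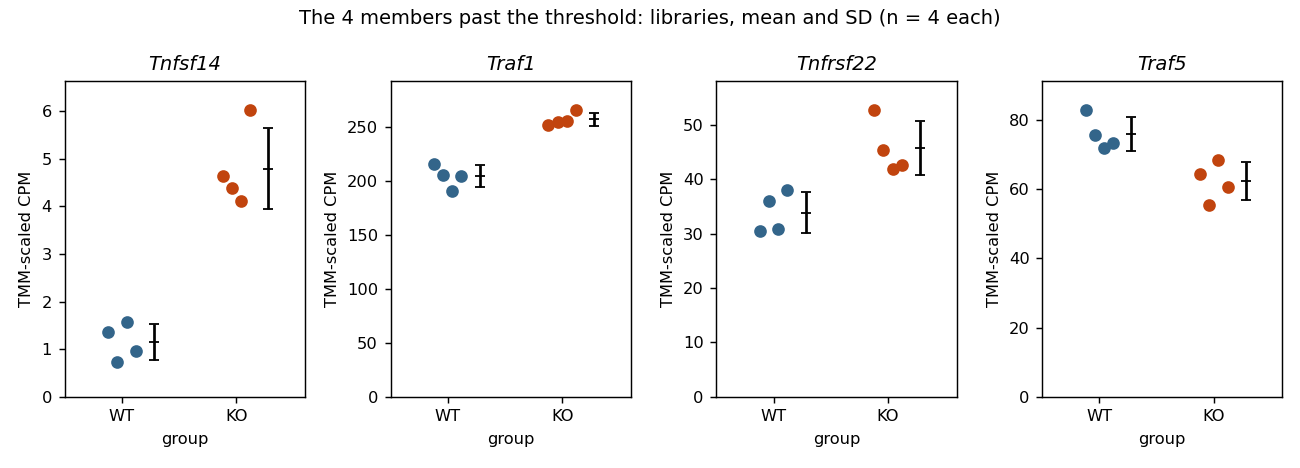
TMM-scaled CPM (y axes, starting at 0) in each WT and KO library (points) with the group mean and SD (bars, n = 4 each) for the 4 genes past the threshold. In all 4 panels the groups do not overlap: Tnfsf14, Traf1 and Tnfrsf22 are higher in KO and Traf5 is lower.

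Tnf, Lta and Ltb lie side by side within 10913 bases of chromosome 17, and none of them passed the threshold. Tnf, the inflammatory cytokine that gives the family its name, was at 16.6, 13.6, 23.7 and 24.2 CPM in KO and 30.1, 24.7, 26.7 and 21.1 CPM in WT. Sample_2907_KO and Sample_2908_KO were below all WT libraries, whereas Sample_2909_KO and Sample_2910_KO lay within the WT range (log2 fold change -0.39, SE 0.16, edgeR adjusted p = 0.21). With no filter on low counts Tnf passed (-0.39, edgeR adjusted p = 0.0361). Lta, which encodes the secreted lymphotoxin alpha, was at 26.5, 25.7, 33.4 and 29.5 CPM in KO and 25.7, 31.2, 22.8 and 23.5 CPM in WT. The groups overlapped (log2 fold change 0.18, SE 0.11, edgeR adjusted p = 0.431). Ltb, the membrane subunit that anchors lymphotoxin alpha at the surface, was at 469, 441, 525 and 510.4 CPM in KO and 539.6, 546, 479 and 439 CPM in WT. Both groups covered almost the same range (log2 fold change -0.04, SE 0.068, edgeR adjusted p = 0.823).

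Cd40lg, the helper ligand that licenses B cells and dendritic cells, stood at 99.9, 103, 94.1 and 97.4 CPM in KO. Its WT values were 84.9, 87.8, 99.5 and 98.6 CPM, so that Sample_2911_WT and Sample_2913_WT were lower than the rest and the other two were inside the KO range (log2 fold change 0.08, SE 0.067, edgeR adjusted p = 0.593). Tnfsf8, the CD30 ligand, was at 118, 118, 111 and 99.0 CPM in KO and 105, 101, 105 and 133 CPM in WT. Sample_2915_WT was the highest of all 8, and the groups overlapped (log2 fold change 0.0051, SE 0.080, edgeR adjusted p = 0.985). Tnfsf10, which encodes the death ligand TRAIL and is known as an interferon-inducible gene, was at 42.3, 48.6, 44.8 and 34.3 CPM in KO and 40.5, 40.0, 47.9 and 44.1 CPM in WT. The groups overlapped here too (log2 fold change -0.03, SE 0.097, edgeR adjusted p = 0.912). Tnfsf11, which encodes RANKL, was rare, at 1.83, 3.18, 3.46 and 4.02 CPM in KO and 2.51, 4.69, 3.39 and 2.68 CPM in WT (log2 fold change -0.07, SE 0.30, edgeR adjusted p = 0.939). Tnfsf9, the 4-1BB ligand, had a log2 fold change of 0.32 (SE 0.38, edgeR adjusted p = 0.733). It shares 192 exon bases with the lincRNA Gm11110 on the opposite strand, and the library kit does not mark strand.

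Among the receptors, 1 of the 14 tested rose and none fell (6 had an unadjusted p under 0.05). Tnfrsf22 encodes a mouse decoy receptor for TRAIL that lacks a death domain. It lies on chromosome 7 at 143634806 to 143649661, minus strand. Its level was 52.8, 45.4, 41.9 and 42.6 CPM in KO and 30.5, 36.0, 30.8 and 38.0 CPM in WT. All KO libraries were higher than all WT libraries, with Sample_2907_KO the highest. The rise was 1.35-fold (log2 fold change 0.43, SE 0.098, edgeR adjusted p = 0.00424; 45.7 ± 4.96 against 33.8 ± 3.78 CPM, SD, n = 4 each). Without Sample_2911_WT and Sample_2914_WT together, the most shallow and the deepest, the log2 fold change was 0.30 and missed the threshold (edgeR adjusted p = 0.187).

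Of the other TRAIL receptors, Tnfrsf23 and Tnfrsf10b gave values in the same direction that did not pass. Tnfrsf23, a second decoy next to Tnfrsf22, had a log2 fold change of 0.41 (SE 0.32, edgeR adjusted p = 0.544) on 109 reads in KO and 101 in WT. It shares 164 exon bases with the antisense gene E230032D23Rik on the opposite strand, which had 194 reads against 210 for Tnfrsf23. Reads within the shared bases cannot be assigned to either gene without strand. Of the 4179 different 75-base words in Tnfrsf22 transcripts, as long as the sequenced reads, 527 (12.6%) also occur in Tnfrsf23, so reads of these 2 genes cannot always be told apart. Tnfrsf10b, the single mouse TRAIL receptor with a death domain, had a log2 fold change of 0.43 (SE 0.19, edgeR adjusted p = 0.201). Its CPM was 10.01, 10.2, 8.65 and 13.0 in KO and 8.11, 9.37, 5.93 and 8.48 in WT, with Sample_2909_KO inside the WT range. Tnfrsf26, the third receptor gene of the chromosome 7 group, shares 107 exon bases with the same antisense gene but no such word with Tnfrsf22, and had a log2 fold change of 0.08 (SE 0.080, edgeR adjusted p = 0.66).

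Neither gene for a receptor of TNF itself passed the threshold. Tnfrsf1a encodes TNF receptor 1, which carries a death domain, and was at 44.0, 46.4, 46.9 and 46.7 CPM in KO and 53.1, 57.5, 53.5 and 52.2 CPM in WT. Each KO library was below each WT library, by little (log2 fold change -0.23, SE 0.078), and the edgeR adjusted p of 0.0806 missed the threshold. Tnfrsf1b encodes TNF receptor 2, the form that is prominent on regulatory T cells. It was at 64.0, 62.9, 59.2 and 65.6 CPM in KO and 68.1, 56.2, 60.7 and 63.4 CPM in WT, with full overlap (log2 fold change 0.02, SE 0.075, edgeR adjusted p = 0.933). Fas, the receptor of Fas ligand, was at 21.9, 25.5, 24.4 and 25.7 CPM in KO and 29.5, 23.1, 27.6 and 28.3 CPM in WT. Sample_2913_WT lay inside the KO range and the other WT libraries above it (log2 fold change -0.16, SE 0.11, edgeR adjusted p = 0.477).

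The costimulatory receptors did not pass either. Cd27, a receptor that naive T cells carry at rest, was at 340.0, 360.35, 358 and 358 CPM in KO and 374, 388, 377 and 389 CPM in WT. The groups did not overlap, and the difference was small (log2 fold change -0.11, SE 0.051, edgeR adjusted p = 0.242). Tnfrsf4 (OX40), which is induced by activation and present on regulatory T cells, was at 11.1, 10.96, 11.2 and 10.04 CPM in KO and 12.9, 10.3, 9.54 and 8.83 CPM in WT. The KO values all lay inside the WT range (log2 fold change 0.09, SE 0.16, edgeR adjusted p = 0.827). Tnfrsf9 (4-1BB) was at 5.37, 4.93, 4.43 and 6.29 CPM in KO and 3.86, 10.1, 4.90 and 5.45 CPM in WT. Sample_2913_WT was the highest of all libraries, and without it the log2 fold change turned from -0.18 (SE 0.25, edgeR adjusted p = 0.786) to 0.11 (edgeR adjusted p = 0.883). Tnfrsf18 (GITR), which the name rule leaves out, rose (log2 fold change 0.50, SE 0.12, edgeR adjusted p = 0.00851), at 26.5 to 43.8 CPM in KO and 23.3 to 25.3 CPM in WT. Of the remaining tested receptors, Tnfrsf25 (death receptor 3, the receptor of TL1A) had 0.07, Tnfrsf12a (the TWEAK receptor Fn14) 0.41 and Tnfrsf13b (TACI, a receptor of BAFF and APRIL) -0.23 as log2 fold change, with edgeR adjusted p of 0.719, 0.422 and 0.204.

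All 7 TRAFs were tested, and they moved in both directions: 1 rose, 1 fell and 5 did not pass. Traf1 encodes an adaptor without a RING domain that is itself a known NF-kB target and pairs with TRAF2. It lies on chromosome 2 at 34941750 to 34961772, minus strand. Its level was 252, 254, 255 and 266 CPM in KO and 216, 206, 191 and 204 CPM in WT. The KO libraries were tightly grouped and all above the WT libraries. The rise was 1.26-fold (log2 fold change 0.33, SE 0.055, edgeR adjusted p = 8.59e-05; 257 ± 6.15 against 204 ± 10.2 CPM, SD, n = 4 each).

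Traf5, an adaptor of CD27, OX40 and other costimulatory receptors, lies on chromosome 1 at 191997205 to 192092559, minus strand. It was at 64.5, 55.6, 68.5 and 60.5 CPM in KO and 83.0, 75.7, 71.9 and 73.3 CPM in WT. Each KO library was below each WT library, with Sample_2911_WT the highest of all. Traf5 fell by 0.28 on the log2 scale (SE 0.076, edgeR adjusted p = 0.0213; 62.3 ± 5.53 against 76.0 ± 4.92 CPM, SD, n = 4 each). The call was lost without Sample_2908_KO (-0.23, edgeR adjusted p = 0.0749), Sample_2910_KO (-0.27, 0.0656) or Sample_2911_WT (-0.24, 0.0756), and without Sample_2911_WT and Sample_2914_WT together (-0.26, 0.16).

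Traf2, the central adaptor that carries cIAP ubiquitin ligases to the receptors, was at 72.2, 74.4, 71.6 and 73.9 CPM in KO and 61.4, 64.0, 66.7 and 60.2 CPM in WT. The groups did not overlap, but the log2 fold change of 0.21 (SE 0.069) missed the threshold (edgeR adjusted p = 0.072). Traf3, which restrains the non-canonical NF-kB pathway by keeping the kinase NIK low, was at 169.6, 156, 151 and 174 CPM in KO and 161, 176, 165 and 155 CPM in WT. These ranges overlapped almost fully (log2 fold change -0.012, SE 0.061, edgeR adjusted p = 0.954). Traf6, the adaptor of CD40 and of interleukin-1 and Toll-like receptors, was at 100.1, 101, 99.96 and 93.7 CPM in KO and 110.4, 105, 104 and 97.1 CPM in WT. Sample_2915_WT lay inside the KO range and the other WT libraries above it (log2 fold change -0.07, SE 0.063, edgeR adjusted p = 0.599). Traf4 and Traf7 had log2 fold changes of -0.07 and 0.06 (edgeR adjusted p = 0.766 and 0.628).

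**Figure D3:**
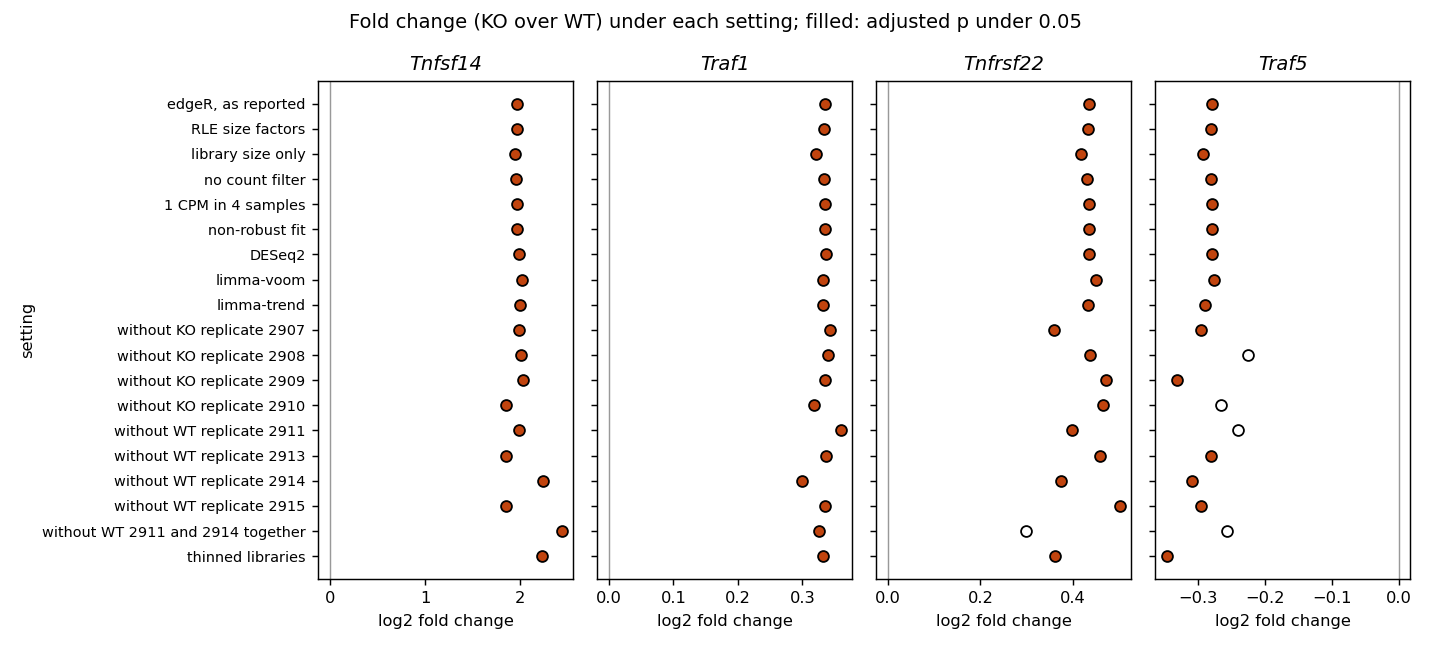
Log2 fold change (x axes) of the 4 genes past the threshold under the reported edgeR fit and 18 alternatives (y axis), filled where the adjusted p was under 0.05. Tnfsf14 and Traf1 are filled throughout, Tnfrsf22 is open once and Traf5 is open 4 times.

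Expression per exon length, in CPM per kb of summed exons of the gene, ranked the members within the naive cells. Ltb was first with 330.3 CPM per kb in WT (289.4 to 360.0) and 320.6 in KO (290.7 to 346.0). Cd27 followed with 164 in WT (160.5 to 167) and 152 in KO (146 to 155). These 2 genes held 51.2% of the summed per-length level of all 35 members in WT. Cd40lg (74.2), Tnfrsf14 (53.2) and Tnfrsf25 (34.1) came next in WT, and the ranges of these first 5 genes did not overlap. Below them the order was less certain. The WT range of Tnfsf8 (26.4 to 34.9 CPM per kb) overlapped those of Tnfrsf25 (31.0 to 38.1) and Traf7 (27.8 to 29.6). Overlap was also seen among those of Traf1 (21.7 to 24.5), Traf3 (21.1 to 24.0) and Tnfrsf26 (19.4 to 22.2). In KO, Traf1 (28.6 to 30.2 CPM per kb) overlapped Tnfsf8 (26.0 to 31.1) and Traf7 (28.8 to 31.0) in the same group. The TRAFs were within a narrow band in WT, from 12.4 (Traf2) to 28.7 CPM per kb (Traf7). In both groups 20 of the 35 members were above 10 CPM per kb. Tnfsf14 moved from 0.62 CPM per kb in WT to 2.59 in KO, from rank 30 to rank 24 of the 35, and stayed below the other called genes.

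**Figure D4:**
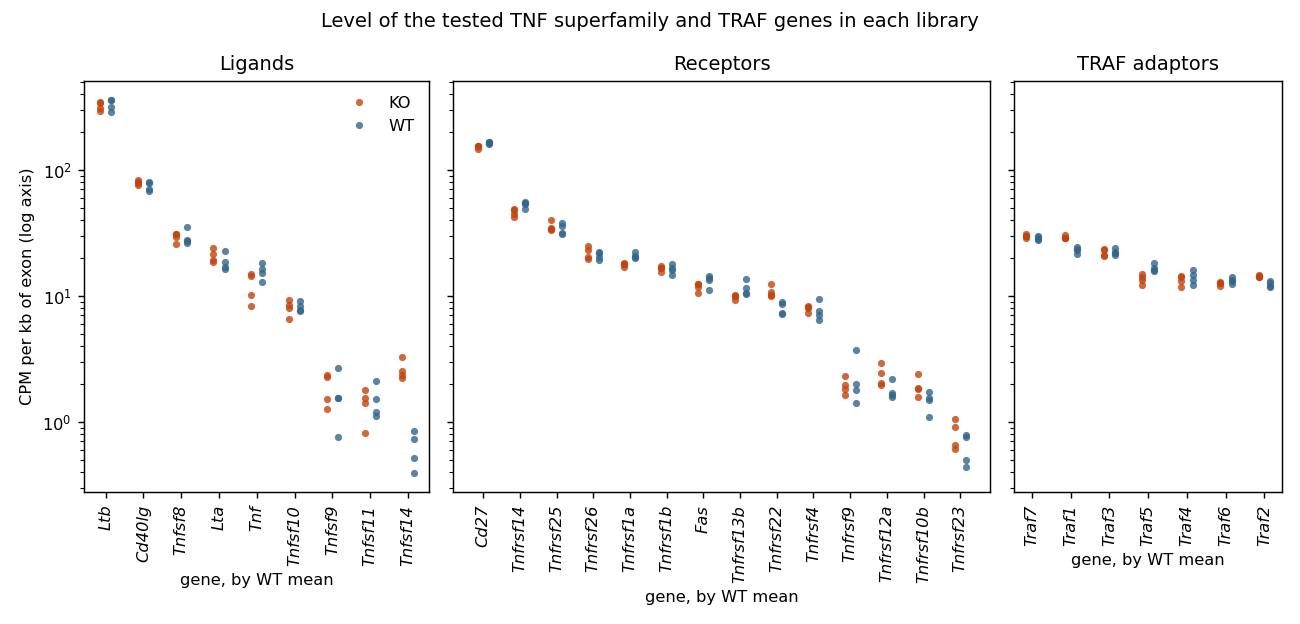
CPM per kb of exon (y axis, log scale) in every KO and WT library for the 30 tested genes (x axis, ordered by the WT mean within ligands, receptors and TRAF adaptors). Ltb and Cd27 stand highest, the TRAFs form a narrow band, and Tnfsf14 is the lowest ligand in WT.

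Several members had a binding partner whose gene had few or no reads in these cells. Cd70, the ligand gene of CD27, had 0 reads over the 8 libraries, and in bulk RNA fewer cells of a type and less RNA per cell cannot be told apart. Tnfsf8 ranked sixth per length in WT, while its receptor gene Tnfrsf8 (CD30) had 1 read. Cd40, the receptor of CD40 ligand, had 1 read, and Tnfrsf11a, the receptor of RANKL, had 3. Tnfsf15, which encodes the ligand of death receptor 3, had 4 reads. Tnfsf18, the GITR ligand, also had 3 reads. Fasl, by contrast, was measurable beside Fas, with a mean of 9.12 ± 0.856 CPM over the KO libraries and 7.65 ± 1.04 CPM over WT (SD, n = 4; log2 fold change 0.24, edgeR adjusted p = 0.514).

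The 5 members with too few reads for the test were Tnfrsf13c, Tnfrsf19, Tnfrsf21, Tnfsf4 and Tnfsf13b. Tnfsf4, the OX40 ligand, had 9 reads in KO and 5 in WT, a depth-corrected ratio of 2.33 with an exact 95% counting interval of 0.701 to 8.84. Tnfrsf21 (death receptor 6) had 9 and 3 reads, a ratio of 3.88 (0.968 to 22.3; exact 2-sided permutation test on CPM, p = 0.171). Tnfsf13b, which encodes BAFF, had 6 and 9 reads, a ratio of 0.862 (0.253 to 2.71). All 5 overlapped between the groups, with exact permutation p between 0.171 and 0.943, where 0.0286 is the smallest that 4 against 4 libraries can give. A further 9 protein-coding genes that the symbols cover had 0 to 8 reads over all libraries and so are not members. They are Ltbr, Tnfrsf8, Tnfrsf11a, Tnfrsf11b, Tnfrsf17, Tnfsf12, Tnfsf13, Tnfsf15 and Tnfsf18. Tnfsf12 and Tnfsf13 share 731 and 983 exon bases with the readthrough gene Tnfsfm13 on the same strand, so their read counts are uncertain.

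Beside the members, a list of 51 signalling and NF-kB genes was examined, of which 49 were tested. The list is wider than TNF receptor signalling and includes Trafd1, a regulator of innate signalling. Of these, 5 rose and 1 fell (12.2%, beside 6.39% of all tested genes), with a median log2 fold change of 0.03. Ikbkb, the beta kinase of the IkB kinase complex, was at 679, 608, 666 and 644 CPM in KO and 529.98, 513, 499.7 and 504 CPM in WT. It rose 1.27-fold with no overlap between groups (log2 fold change 0.34, SE 0.052, edgeR adjusted p = 3.2e-05). Nfkb1, the gene of the p105/p50 subunit, was at 379, 381, 338 and 345 CPM in KO and 309, 299.9, 306 and 294 CPM in WT (0.26, SE 0.055, edgeR adjusted p = 0.0024). Nfkb2, the gene of p100/p52 in the non-canonical pathway, was at 91.6, 82.1, 86.7 and 95.3 CPM in KO and 71.6, 77.7, 65.6 and 56.9 CPM in WT (0.40, SE 0.081, edgeR adjusted p = 0.00131). Both subunit genes were higher in every KO library than in any WT library. Nfkb2 shares 299 exon bases with Psd on the opposite strand, which had 1183 reads against 5943 for Nfkb2. Reads within these shared bases cannot be assigned to either gene without strand.

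Casp8, the initiator caspase of death receptors, was at 228, 237, 230.3 and 234 CPM in KO and 184, 199.7, 193 and 190.2 CPM in WT (0.28, SE 0.053, edgeR adjusted p = 0.000836). Trafd1, a feedback regulator of innate signalling with a TRAF-type zinc finger, was at 77.5, 78.7, 68.8 and 74.7 CPM in KO and 58.3, 54.1, 61.3 and 55.4 CPM in WT (0.38, SE 0.073, edgeR adjusted p = 0.000743). Both rose without overlap between the groups. Tab1, a partner of the kinase TAK1, was at 23.7, 26.9, 32.7 and 32.5 CPM in KO and 35.7, 37.5, 39.9 and 37.9 CPM in WT, and fell (-0.39, SE 0.10, edgeR adjusted p = 0.0168). Its call was lost without Sample_2907_KO (-0.31, edgeR adjusted p = 0.101). Tab1 also lost its call without Sample_2914_WT, without Sample_2911_WT and Sample_2914_WT together and with thinned libraries, with edgeR adjusted p of up to 0.119. Other NF-kB subunits and inhibitors did not pass: Rela had 0.11 (edgeR adjusted p = 0.292), Rel -0.03 (0.896), Relb 0.21 (0.214) and Nfkbia 0.16 (0.117) as log2 fold change. The feedback deubiquitinase gene Tnfaip3 had 0.11 (0.525), the ubiquitin ligase gene Birc3 0.04 (0.81) and the NIK gene Map3k14 -0.0093 (0.968). Bcl3 had the largest log2 fold change of the list, 0.43 (SE 0.15), without passing in the reported fit (edgeR adjusted p = 0.147). It passed with no count filter, a non-robust fit, DESeq2, limma-voom and limma-trend, and without Sample_2913_WT or Sample_2915_WT. Ripk1 had 0.21 without overlap between the groups and narrowly missed the threshold (edgeR adjusted p = 0.0516). It shares 241 exon bases with Serpinb6a on the opposite strand, which had 1362 reads against 6694 for Ripk1. Ripk1 passed with limma-voom and without Sample_2908_KO or Sample_2911_WT.

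**Figure D5:**
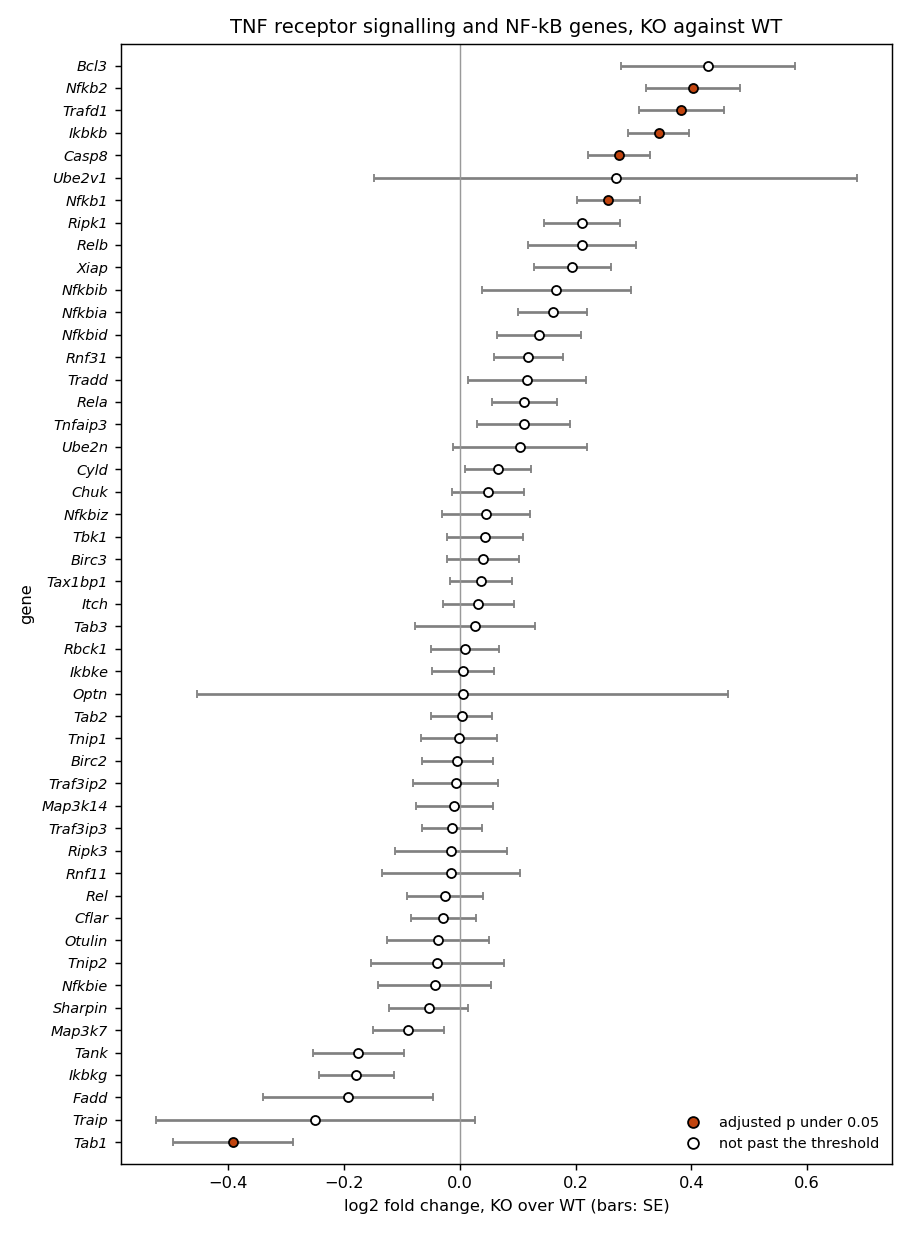
Log2 fold change of KO over WT (x axis; bars are SE, 4 libraries each) for the 49 tested TNF receptor signalling and NF-kB genes (y axis), with filled points for an edgeR adjusted p under 0.05. Nfkb2, Trafd1, Ikbkb, Casp8 and Nfkb1 are filled to the right of 0 and Tab1 is filled to the left.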

How the data were processed

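Per the labels' protocols, libraries were made from poly(A) RNA with a TruSeq v2 kit, which does not mark strand, and read as single 75-base reads. The authors deposited a table of raw read counts for 53465 gene IDs. They also deposited a signal table of 16418 genes, where dividing counts by a constant for each library returns the values (checked here). Per the submitters' processing notes, CASAVA 1.8.2, FastQC, R 3.5.3, DESeq2 1.22.2 and the build mm10 were used. Aligner, counter and annotation: not given in the sources used here. Positions and exon lengths came from GENCODE M21 (GRCm38), which matched 99.8% of the IDs.

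Counts were tested with edgeR 4.0.16 (robust quasi-likelihood F test, filterByExpr, TMM) on KO against WT over 11772 genes, called at a Benjamini-Hochberg adjusted p under 0.05. SE was obtained by dividing the size of the log2 fold change by the root of F, and CPM uses TMM-scaled library sizes. For untested genes, reads were pooled, with 95% exact intervals that cover counting error only. Replicates differed beyond sampling noise in all 12 pairs within groups (chi-square per gene 2.61 to 10.4).

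Alternatives were RLE factors, library size only, no count filter, 1 CPM in 4 samples, a non-robust fit, DESeq2 1.42.0, limma-voom and limma-trend (limma 3.58.1, log2 of the deposited normalized signal plus 1), leaving out libraries, and thinning to 5227758 reads. The members, lists and alternatives were chosen with earlier results of these data known. Values in every library are given for called members and a fixed panel of 18 members, and of the signalling list for called genes. The values in every library of Tnfrsf14 and Tnfrsf10b, the other list genes and the binding partners named were picked after their values were seen. The result of 1 marker gene is not reported here.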

Additional observations from a re-analysis of the deposited data

Results flagged for a closer look

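In 3 of the 40 groups of 4 libraries examined (20 genes in each of KO and WT), the highest or lowest library stood apart by more than Dixon's 95% critical value for 4 values, as a share of the range. Chance flags about 1 group in 20. Cd27 in Sample_2907_KO was at 340.0 CPM, the lowest KO value, with a gap of 0.863 of the range to the next. Tnfsf8 in Sample_2915_WT was at 133 CPM, the highest WT value, with a gap of 0.862 of the range. Traf6 in Sample_2910_KO was at 93.7 CPM, the lowest KO value, with a gap of 0.861 of the range.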

How the results depend on the processing

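Tnfsf14 (log2 fold change 1.85 to 2.44) and Traf1 (0.30 to 0.36) passed in all 18 alternatives. Tnfrsf22 passed in 17 and missed without Sample_2911_WT and Sample_2914_WT together (0.30), and Traf5 passed in 14. The count of members higher in KO was 3 (2 without that WT pair). The count lower was 1, but 2 with no count filter and with thinned libraries, 0 without the WT pair, and 0 to 1 when single libraries were left out. Over all genes, 158 were lower without the WT pair, against 284. Of the signalling list, 1 was lower, but 0 without the WT pair and with thinned libraries, and 0 to 2 with single libraries left out.

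Signs turned only in genes that were not called under any setting named here. With single libraries left out, the log2 fold change ran from -0.10 to 0.0041 for Ltb (0.00077 without Sample_2913_WT), -0.020 to 0.058 for Tnfrsf1b, -0.30 to 0.11 for Tnfrsf9, -0.11 to 0.053 for Tnfsf10, -0.21 to 0.11 for Tnfsf11, -0.038 to 0.11 for Tnfsf8 and -0.046 to 0.021 for Traf3. Thinning gave -0.036 for Tnfrsf1b and 0.18 for Tnfsf11, limma-voom -0.00036 for Tnfsf8 and 0.0056 for Traf3, and library size only -0.0098 for Tnfsf8. Without the WT pair Tnfsf10 was at 0.012 and Tnfsf8 at -0.077. For results that lost or gained a call the cause was not tested. No paired analysis was possible because the groups share no library numbers. Genes of a few CPM, such as Tnfsf9 and Tnfsf11, had SE of 0.38 and 0.30 on the log2 scale, which limits what could be detected.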

Other observations

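The genes beside the called members were measured within 50000 bases on either side. Next to Tnfsf14, Cd70 and C3 had 0 and 17 reads over the 8 libraries, and Gpr108, 40458 bases away, was at 0.18 on the log2 scale, KO over WT (edgeR adjusted p = 0.179). Tnfsf9, the nearest family member that was tested, lies 81735 bases from Tnfsf14 and had 0.32 (edgeR adjusted p = 0.733). Around Tnfrsf22 on distal chromosome 7, the lipid transfer protein gene Osbpl5, 39101 bases away, rose (0.37, edgeR adjusted p = 0.00569). The cysteinyl-tRNA synthetase gene Cars, 34716 bases away, had 0.36 (edgeR adjusted p = 0.0845). The antisense gene E230032D23Rik, which overlaps Tnfrsf22 on the opposite strand, had 0.099 (edgeR adjusted p = 0.916). Tnfrsf26, 6084 bases away, had 0.08 (edgeR adjusted p = 0.66). Next to Traf5, Rcor3 had 0.15 (edgeR adjusted p = 0.449), and next to Traf1, Phf19 had 0.55 (edgeR adjusted p = 0.257).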
